A study of Mus musculus with 7 samples.

Results

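The genes described here are those that send, receive and modulate Wnt signals at the cell surface: 37 protein-coding genes, chosen by name, of 21883 protein-coding genes with a chromosome in RefSeq. They comprise 17 genes for Wnt ligands, 12 genes for receptors (Fzd1 to Fzd10, Lrp5 and Lrp6), 4 genes for secreted Frizzled-related proteins (Sfrp1, Sfrp2, Sfrp5 and Frzb) and 4 genes for R-spondins (Rspo1 to Rspo4). All 37 symbols were found. For each gene, peaks of β-catenin and of Pygo2 were counted within 1 kb, 50 kb and 100 kb of either end of the gene. The peaks come from ChIP-seq, which maps where a protein is bound to or held near DNA, on the branchial arches of wild-type mouse embryos collected 10.5 days post coitum. Branchial arches are paired bulges of the embryo from which the jaws, middle ear and throat arise. Embryos were pooled. The labels name no strain and do not say what separates the libraries called BA1 from those called BA2. Used here are 1 library of β-catenin and 1 of Pygo2, both named BA2, with IgG BA1 as the control of peak calling in the file headers.

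Wnt ligands are secreted, lipid-modified glycoproteins. They bind a Frizzled receptor together with the co-receptor Lrp5 or Lrp6, which stabilises β-catenin, lets it enter the nucleus and lets it act on genes through DNA-binding TCF/LEF proteins, where Bcl9 links it to Pygo proteins. Sfrp proteins and Frzb resemble the Wnt-binding domain of Frizzled and can hold Wnt ligands outside the cell, whereas R-spondins raise the number of Wnt receptors at the surface by acting on Lgr receptors and the ubiquitin ligases Znrf3 and Rnf43. In the arches, Wnt signals between the epithelium and the neural crest mesenchyme take part in the outgrowth and patterning of the face.

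Each list rests on 1 library, so no value has a replicate error and no test between conditions was possible. The β-catenin list held 1079 peaks from 13672937 tags and the Pygo2 list 7150 peaks from 15009636 tags. Peaks averaged 14.6 and 15.5 tags against calling minimums of 11 and 10, so a weaker site would not have been listed, and a gene without a peak is one at which none was detectable at this depth. The β-catenin list is shorter, so counts for β-catenin and Pygo2 are given side by side without being compared. A lower count for β-catenin cannot be read as less binding. Peak lists measure neither RNA nor cell types, so the tissue label could not be checked against markers. Distances run to the nearer end of a gene, also for a peak inside a gene, and a peak's nearest gene is the protein-coding gene with the nearest end. Intervals are 95% exact binomial intervals over genes. They cover counting only, and neighbouring genes that share peaks make them too narrow.

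Promoter sequences are shown for the genes whose start site lay nearest to a Pygo2 peak, with a gene without peaks for contrast. RefSeq sequences of GRCm38.p6 (mm10) held a start site for 25 of the 37 genes, with 28 start sites in all. The 250 bases before the start site are given 5′ to 3′ on the gene's strand, and capitals mark the letters CTTTGAT or CTTTGTT, the core of TCF/LEF sites, on either strand. Fzd1 is shown because it was the 1 gene in this sequence table with a peak within 1 kb of its start, with the peak centre 0.164 kb downstream (chr5:4758217-4758466, minus strand). Wnt6 (chr1:74771642-74771891, plus strand) and Wnt11 (chr7:98834862-98835111, plus strand, the first of 2 start sites) had peak centres 1.505 kb and 1.818 kb downstream. Fzd7 is shown because the nearest Pygo2 peak was 165.3 kb away (chr1:59481897-59482146, plus strand).
Fzd1: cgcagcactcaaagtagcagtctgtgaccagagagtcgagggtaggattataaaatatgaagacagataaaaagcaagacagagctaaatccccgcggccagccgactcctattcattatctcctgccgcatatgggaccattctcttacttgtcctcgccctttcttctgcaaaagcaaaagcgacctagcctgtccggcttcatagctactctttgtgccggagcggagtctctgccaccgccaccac
Wnt6: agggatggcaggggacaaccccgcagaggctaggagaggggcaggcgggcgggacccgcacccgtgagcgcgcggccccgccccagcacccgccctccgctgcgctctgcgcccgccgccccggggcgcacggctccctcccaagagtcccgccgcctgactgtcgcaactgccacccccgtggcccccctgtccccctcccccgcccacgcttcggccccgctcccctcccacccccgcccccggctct
Wnt11: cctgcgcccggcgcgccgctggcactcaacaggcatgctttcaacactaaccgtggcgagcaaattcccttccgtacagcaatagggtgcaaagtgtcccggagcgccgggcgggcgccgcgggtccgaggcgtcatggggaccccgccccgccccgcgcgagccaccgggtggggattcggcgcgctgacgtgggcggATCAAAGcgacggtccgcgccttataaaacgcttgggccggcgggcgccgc
Fzd7: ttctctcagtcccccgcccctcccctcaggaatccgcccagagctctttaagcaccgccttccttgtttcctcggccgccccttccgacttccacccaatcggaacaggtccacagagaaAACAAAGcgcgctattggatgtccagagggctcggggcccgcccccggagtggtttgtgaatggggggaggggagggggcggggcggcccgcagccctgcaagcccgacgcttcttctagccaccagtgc
The Wnt11 sequence holds CTTTGAT on the opposite strand, 51 bases before the start, and the Fzd7 sequence holds CTTTGTT on the opposite strand, 130 bases before the start. Fzd1 and Wnt6 hold neither. Over the whole window of 300 bases (250 before and 50 after the start), CTTTGAT occurred at 2 of the 28 start sites, those of Wnt11 and Wnt5b, which is 7.14%, against 3.22% of 21262 windows of all protein-coding genes. CTTTGTT occurred at 2 of 28 (7.14%), those of Fzd7 and Wnt3, against 5.01% of all windows. These matches describe letters in these windows and do not locate binding.

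These promoters were rich in CpG dinucleotides. The median was 29 CpG per window of 300 bases over the 28 start sites (range 4 to 58), against 13 over all protein-coding genes. Receptor genes had a median of 35 (6 windows), ligand genes 29 (17 windows), Sfrp genes 20 (3 windows) and Rspo genes 30 (2 windows). Among the 25 genes with a sequence, the 11 windows of genes with a Pygo2 peak within 50 kb of a gene end had a median of 23 CpG (range 15 to 45). The 17 windows of the others had a median of 31 (range 4 to 58). The 11 windows come from 10 genes, since Wnt11 has 2 start sites. Fzd2, Fzd3, Fzd8, Lrp5 and Wnt10a also have such a peak but no sequence, so the median of 23 leaves them out. Split in the same way, all protein-coding genes had a median of 19 with such a peak and 7 without. The ranges within the 37 genes overlap, the groups are small, and the difference was not tested. Of the promoters shown, the Fzd1 window, at a peak, held 16 CpG, that of Wnt6 31 and that of the first Wnt11 start site 45. The Fzd7 window, without a peak nearby, held 24, which lies between these values.

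Pygo2 peaks lay at the ends of 4 Frizzled genes and 1 ligand gene, and no β-catenin peak lay at any of the 37 genes. Within 1 kb of an end, 5 of 37 genes (13.5%, interval 4.54 to 28.8%) had a Pygo2 peak, against 16.5% of all protein-coding genes. For β-catenin the count was 0 of 37 (upper bound of the interval 9.49%), against 2.01% of all protein-coding genes. Within 50 kb, 15 genes (40.5%, interval 24.8 to 57.9%) had a Pygo2 peak, against 45.8% of all genes, and 2 genes, Wnt2 and Wnt6, had a β-catenin peak (5.41%), against 10.9%. Within 100 kb, 26 genes (70.3%, interval 53.0 to 84.1%) had a Pygo2 peak, against 57.3%, and 10 genes (27%, interval 13.8 to 44.1%) a β-catenin peak, against 17.0%. Each interval of the 37 genes includes the share of all genes, so these counts do not set the 37 genes apart from the background. The median distance to the nearest Pygo2 peak was 65.4 kb for the 37 genes and 64.8 kb for all protein-coding genes. To the nearest β-catenin peak it was 524.4 kb for the 37 genes and 659.8 kb for all protein-coding genes.

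**Figure D1:**
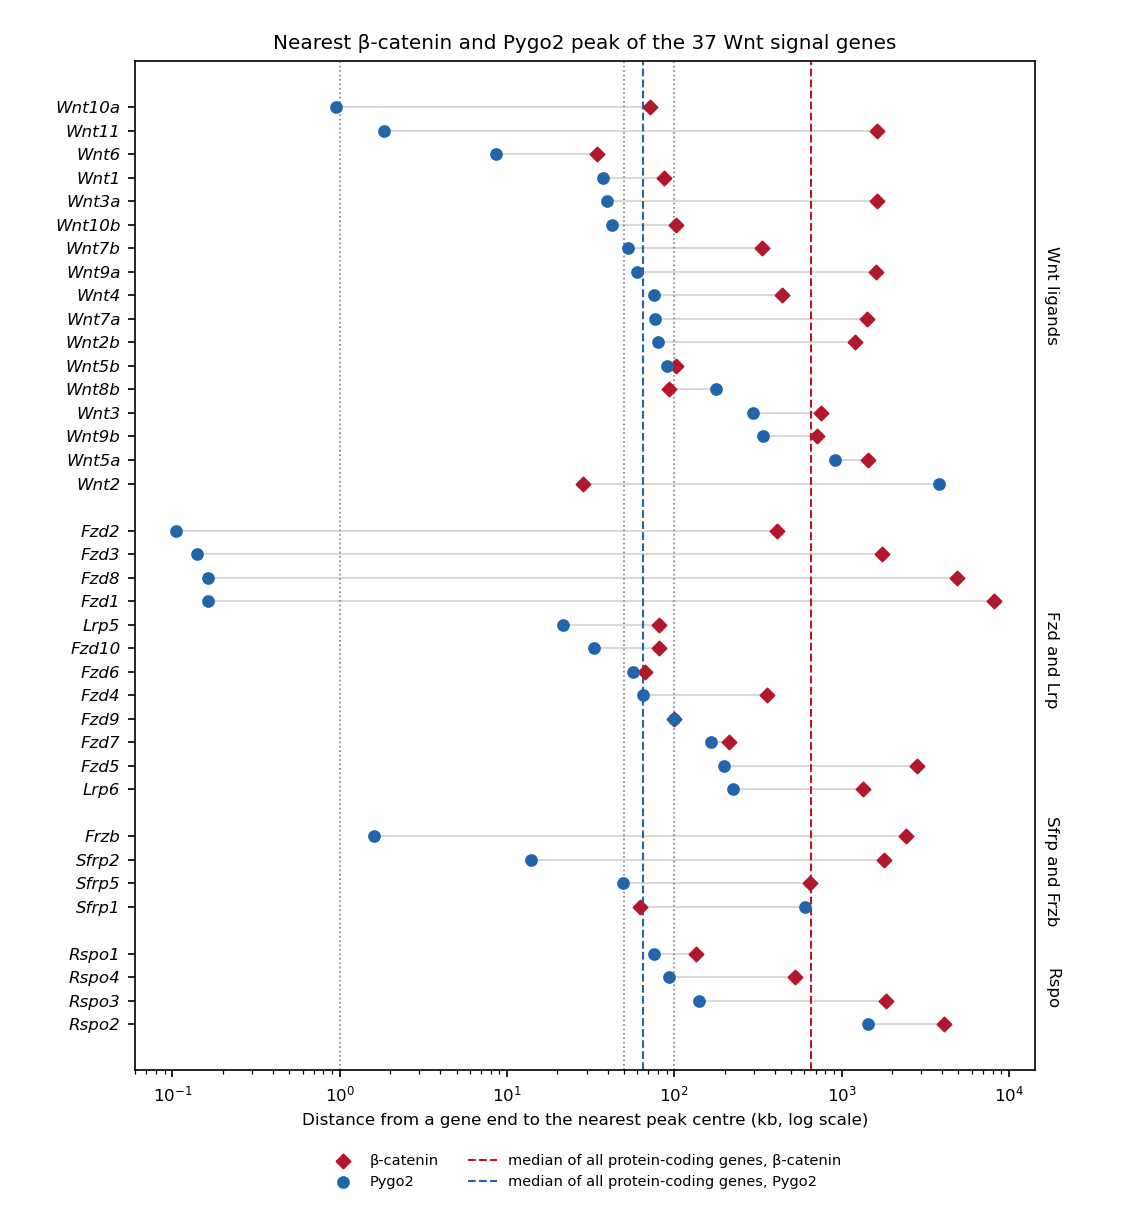
Distance from the nearer gene end to the centre of the nearest β-catenin peak (diamonds) and Pygo2 peak (circles) for each of the 37 genes, in kb on a log scale. Dotted lines mark 1, 50 and 100 kb, and dashed lines the medians of all protein-coding genes. Fzd1, Fzd2, Fzd3 and Fzd8 have a Pygo2 peak at 0.105 to 0.164 kb. In the shorter β-catenin list, the nearest peak to any of the 37 genes is 28.4 kb from Wnt2.

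By class, Pygo2 peaks within 1 kb were found mostly at receptor genes. At 1 kb the count was 4 of 12 receptor genes (33.3%, interval 9.93 to 65.1%), 1 of 17 ligand genes (5.88%, interval 0.149 to 28.7%) and 0 of 4 in both the Sfrp and the Rspo class, against 16.5% of all genes. At 50 kb it was 6 of 12 receptor genes (50%), 6 of 17 ligand genes (35.3%), 3 of 4 Sfrp genes (75%) and 0 of 4 Rspo genes, against 45.8%. At 100 kb it was 9 receptor genes, 12 ligand genes, 3 Sfrp genes and 2 Rspo genes, against 57.3% of all genes. The background lay inside the interval of every class in each window. With 4 genes, the Sfrp and Rspo intervals span most of the possible range (19.4 to 99.4% and 0 to 60.2% at 50 kb). The order of the classes is therefore a description of these genes. For β-catenin at 100 kb the count was 4 of 12 receptor genes (33.3%), 5 of 17 ligand genes (29.4%), 1 of 4 Sfrp genes and 0 of 4 Rspo genes, against 17.0% of all genes. The intervals of 9.93 to 65.1% for receptor genes and 10.3 to 56.0% for ligand genes include that share.

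**Figure D2:**
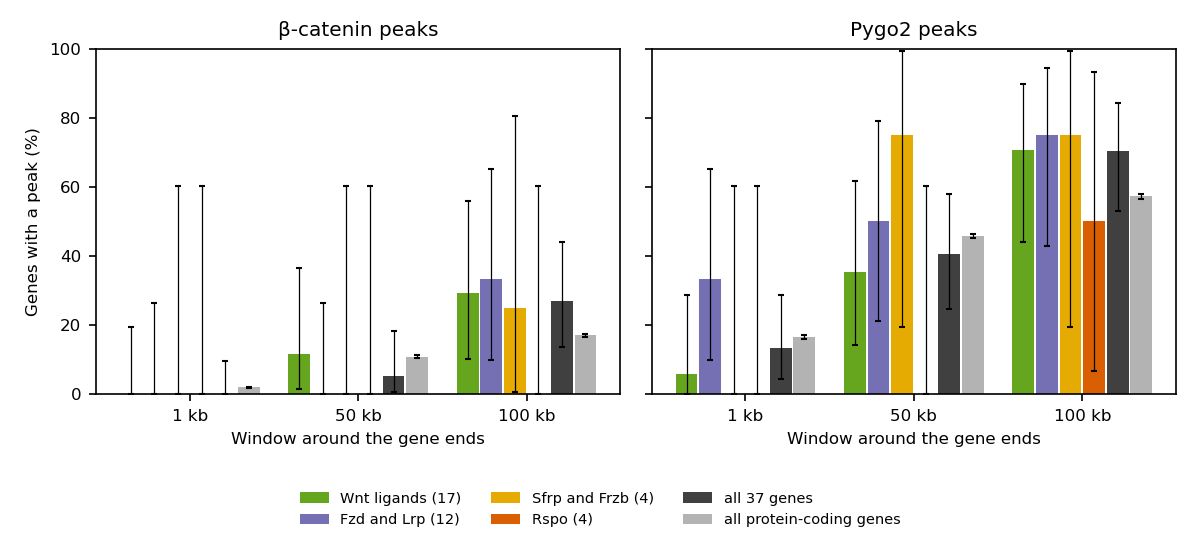
Percentage of genes with a β-catenin peak (left) or a Pygo2 peak (right) within 1, 50 and 100 kb of a gene end, for the 4 classes, all 37 genes and all protein-coding genes; bars start at 0 and whiskers are 95% exact binomial intervals. The receptor class is the highest at 1 kb for Pygo2, at 33.3% against 16.5% of all genes, with an interval of 9.93 to 65.1%.

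The receptor genes carried the nearest peaks. Fzd2 encodes a Frizzled whose human counterpart is mutated in the skeletal disorder omodysplasia, and its Pygo2 peak (chromosome 11, 102604243 to 102604409) lay with its centre 0.105 kb outside the gene (102604431 to 102608058). It stood at 6.67% of the deposited list, the earliest position among the 5 peaks at gene ends. Fzd2 had 5 Pygo2 peaks within 50 kb, the most of the 37 genes, and 4.14% of all protein-coding genes had 5 or more. Of these 5 peaks, 3 had Fzd2 as their nearest protein-coding gene, at 0.105, 17.2 and 22.9 kb, and the other 2, at 25.6 and 48.1 kb, lay nearer to Gpatch8.

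At Fzd3, a Frizzled gene known for axon guidance and planar cell polarity, the Pygo2 peak (chromosome 14, 65262521 to 65262687) had its centre 0.141 kb outside the gene (65192441 to 65262463). A further peak 4.19 kb from Fzd3 was 0.039 kb from an end of the neighbouring gene Fbxo16, and another was 6.35 kb from the opposite end of Fzd3. At Fzd1, the peak (chromosome 5, 4757969 to 4758135) lay inside the gene (4753839 to 4758216), near the start of its transcript. At Fzd8, the peak (chromosome 18, 9212936 to 9213102) lay inside the gene (9212856 to 9216201), 0.163 kb from an end. The strand of Fzd2, Fzd3 and Fzd8 is not in the sequence table used here, so start and 3′ end were not told apart for these 3 genes. At all 4 genes the peak lay nearer to the Frizzled gene than to any other protein-coding gene.

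The remaining receptor genes had more distant peaks or none. Fzd10 had 2 Pygo2 peaks, 33.1 and 41.9 kb from its end, with Fzd10 as the nearest protein-coding gene of both. Lrp5, a co-receptor gene, had a peak at 21.8 kb that was 0.071 kb from an end of 1810055G02Rik. Fzd4, a receptor also for the ligand Norrin in blood vessels, had its nearest Pygo2 peak at 65.4 kb, inside Tmem135, although no end of another protein-coding gene lay nearer. Fzd6 (56.5 kb) and Fzd9 (99.8 kb) had a peak within 100 kb that lay nearer to Baalc and to Tbl2. Fzd5, Fzd7 and Lrp6, the other co-receptor gene, had no peak of either protein within 100 kb, with the nearest Pygo2 peaks at 197.9, 165.3 and 224.4 kb.

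Among the ligand genes, only Wnt6, Wnt10a and Wnt11 had a Pygo2 peak within 50 kb to which no other protein-coding gene lay nearer. Wnt6 and Wnt10a are neighbours on chromosome 1 with 6.70 kb between them and no protein-coding gene in that gap, and Wnt10a is known for its role in teeth and hair. All 4 Pygo2 peaks within 50 kb of Wnt10a were also within 50 kb of Wnt6, so these genes do not count as separate observations. The peak nearest to Wnt10a (74803139 to 74803305) lay inside the gene (74792019 to 74804176), 0.954 kb from its higher-numbered end. The other 3 stood 4.12 kb beyond that end of Wnt10a (74808210 to 74808376) and, inside Wnt6 (74754342 to 74785322), at 74762904 to 74763070 and 74773314 to 74773480. The last of these was 11.9 kb from an end of the RefSeq Wnt6 gene but 1.505 kb downstream of the Wnt6 start site in the sequence table, since the gene extends upstream of that start site. The peak at 74762904 to 74763070 lay at -8.905 kb, that is upstream, of the same start site. Wnt6, Wnt10a and Fzd2 (8.11% of the 37 genes) had 4 or more Pygo2 peaks within 50 kb, against 6.74% of all protein-coding genes. With 2 or more it was 7 of 37 (18.9%), against 23.9%.

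Wnt11, a ligand best known for non-canonical signalling and required in the developing outflow tract of the heart, had a Pygo2 peak inside the gene (chromosome 7, 98836847 to 98837013; gene 98835084 to 98854747). Its centre lay 1.818 kb downstream of the first Wnt11 start site and at -1.915 kb, that is upstream, of the second. A second peak was 30.5 kb from Wnt11, and Wnt11 was the nearest protein-coding gene of both.

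**Figure D3:**
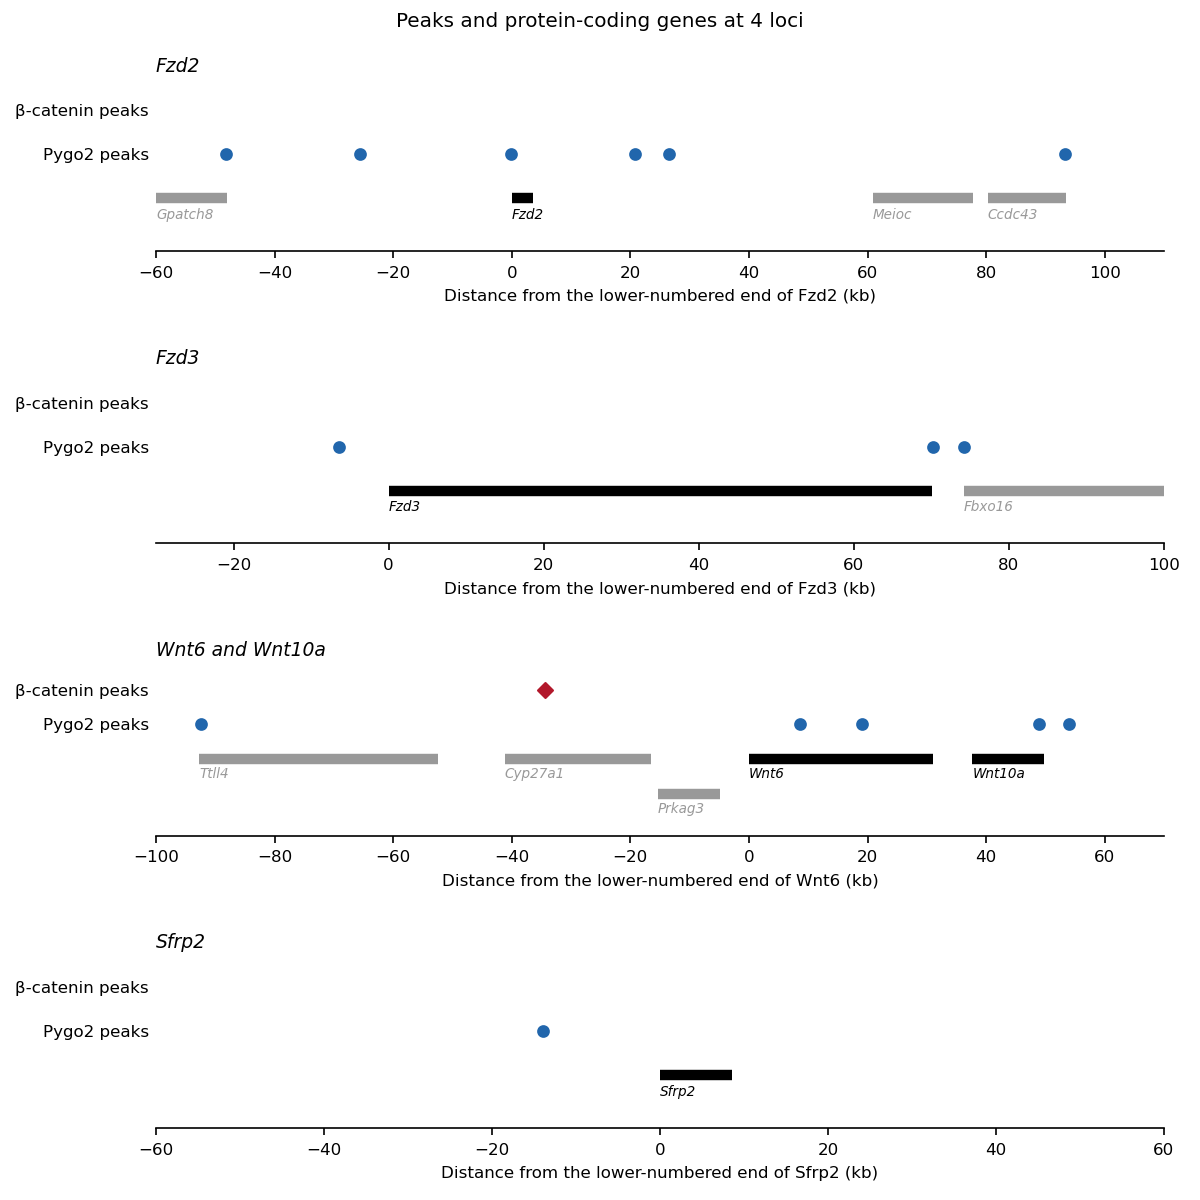
Peaks (circles for Pygo2, diamonds for β-catenin, at their centres) above protein-coding genes (bars; black for genes of the 37, grey for others) at Fzd2, Fzd3, Wnt6 with Wnt10a, and Sfrp2; the axis is the distance in kb from the lower-numbered end of the named gene. Pygo2 peaks stand at an end of Fzd2 and of Fzd3, and 4 lie in and beside Wnt6 and Wnt10a, where the β-catenin peak lies inside Cyp27a1.

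For the other ligand genes with a Pygo2 peak within 50 kb, the peak lay at a neighbouring gene. The peak 37.7 kb from Wnt1, the ligand of the midbrain and dorsal neural tube, was 0.003 kb from an end of Prkag1. The peak 39.7 kb from Wnt3a, a canonical ligand, was 0.021 kb from an end of 2310033P09Rik. The 2 peaks near Wnt10b, at 42.2 and 43.0 kb, were 0.315 and 0.483 kb from an end of Fkbp11. Wnt1 and Wnt10b are also neighbours, 11.7 kb apart, and shared 5 Pygo2 peaks at 100 kb and 0 at 50 kb. Between 50 and 100 kb, Pygo2 peaks were found for Wnt7b (52.95 kb), Wnt9a (60.2 kb), Wnt4 (75.9 kb), Wnt7a (77.1 kb), Wnt2b (80.2 kb) and Wnt5b (91.1 kb). Of these, Wnt7b was the nearest protein-coding gene of its peak, and the others were not.

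Several ligand genes with known roles in the face had no peak nearby. Wnt5a, a non-canonical ligand required for outgrowth of the face and limbs, was 916.2 kb from the nearest Pygo2 peak and 1437 kb from the nearest β-catenin peak. The overlapping genes Wnt3 and Wnt9b on chromosome 11, ligands of the facial ectoderm, were 296.9 and 339.6 kb from the nearest Pygo2 peak and 757.1 and 710.3 kb from the nearest β-catenin peak. Wnt8b had no Pygo2 peak within 100 kb. Wnt2 was the ligand gene farthest from a Pygo2 peak, at 3820 kb. In all, 8 of the 37 genes had no peak of either protein within 100 kb: Wnt3, Wnt5a, Wnt9b, Fzd5, Fzd7, Lrp6, Rspo2 and Rspo3. The matching share of all protein-coding genes was not computed, so this list does not set these genes apart. For Pygo2 alone, 57.3% of all protein-coding genes had a peak within 100 kb, against 70.3% of the 37 genes.

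Of the genes for secreted inhibitors, Frzb and Sfrp2 had Pygo2 peaks to which no protein-coding gene lay nearer. At Frzb, also known for its role in cartilage, the peak (chromosome 2, 80410293 to 80410459) lay 1.59 kb outside the gene (80411970 to 80447396), on the side of its 3′ end and 37.02 kb from its start site. At Sfrp2 the peak stood 14.5 kb upstream of the start site (13.96 kb from the gene end), at 94.4% of the list, and so among the last-listed peaks. The peak 49.6 kb from Sfrp5 was 0.992 kb from an end of Marveld1. Sfrp1 had no Pygo2 peak within 100 kb, the nearest being at 603.2 kb.

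No Rspo gene had a peak of either protein within 50 kb. Rspo2, whose loss in mice affects limbs and craniofacial structures, was 1447 kb from the nearest Pygo2 peak and 4082 kb from the nearest β-catenin peak. Rspo3, which acts in blood vessels and placenta, was 140.0 kb from the nearest Pygo2 peak. For Rspo1 and Rspo4 the distances were 76.1 and 92.7 kb, to peaks that lay nearer to Meaf6 and to Fam110a. A class of 4 genes with a background of 45.8% allows no statement about R-spondin genes in general.

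The β-catenin peaks within 100 kb of the 37 genes lay 28.4 kb or more from them, and most lay nearer to other genes. The median distance to the nearest β-catenin peak was nonetheless no larger for the 37 genes (524.4 kb) than for all protein-coding genes (659.8 kb). Within 100 kb there were 9 distinct β-catenin peaks, 8 of which lay nearer to a protein-coding gene outside the 37. The exception was 62.4 kb from Sfrp1 (chromosome 8, 23348917 to 23349085), at 16.5% of the list, with no nearer protein-coding gene. The peak 28.4 kb from Wnt2, a ligand of lung and heart mesoderm (chromosome 6, 17957017 to 17957185), was 14.1 kb from an end of St7. The peak 34.4 kb from Wnt6 and 72.0 kb from Wnt10a (chromosome 1, 74719908 to 74720076) was 6.84 kb from an end of Cyp27a1 and inside that gene. Those of Wnt8b (92.9 kb; chromosome 19, 44607036 to 44607204), Fzd6 (67.2 kb; chromosome 15, 38938834 to 38939002) and Fzd10 (80.7 kb; chromosome 5, 128684667 to 128684835) lay nearest to Hif1an, Baalc and Piwil1. That of Lrp5 (81.2 kb; chromosome 19, 3767744 to 3767912) was 0.466 kb from an end of Kmt5b. Wnt1 and Fzd9 complete the 10 genes, and their β-catenin peaks are those shared with Pygo2. How often a peak within 100 kb of other genes lies nearer to a further gene was not computed. The count of 8 of 9 therefore describes these peaks only.

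Peaks of β-catenin and Pygo2 did not overlap, by at least 1 bp, within 1 or 50 kb of any of the 37 genes (0 of 37), against 0.786% and 4.00% of all protein-coding genes. Within 100 kb, 2 genes (5.41%, interval 0.66 to 18.2%) had one, against 6.32% of all genes. At 87.4 kb from Wnt1 the β-catenin peak (chromosome 15, 98881131 to 98881299) overlapped a Pygo2 peak (98880976 to 98881142), 0.282 kb from an end of Rhebl1. These peaks had only the bases 98881131 to 98881142 in common, less than the overlap of 50% asked for in an alternative below. At 99.9 kb from Fzd9 the β-catenin peak (chromosome 5, 135148983 to 135149151) overlapped a Pygo2 peak (135149045 to 135149211), 0.362 kb from an end of Tbl2. Both shared positions thus lay within 1 kb of another gene. The lists hold 273 shared positions in all, and for none of these was one of the 37 genes the nearest protein-coding gene.

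**Figure D4:**
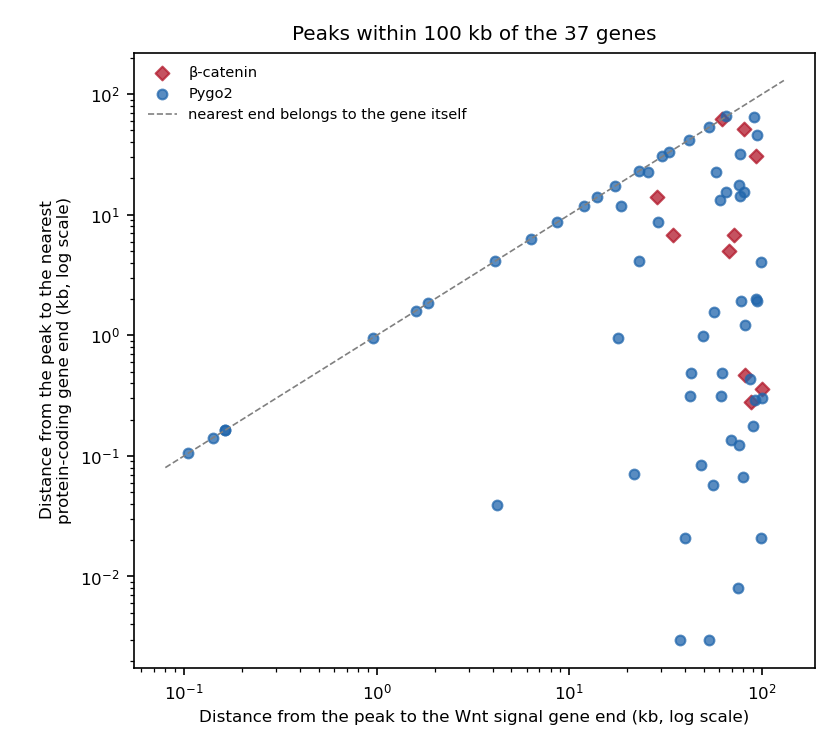
For each peak within 100 kb of one of the 37 genes, its distance to that gene's nearer end (horizontal axis, kb, log scale) and to the nearest end of any protein-coding gene (vertical axis, kb, log scale), β-catenin as diamonds and Pygo2 as circles. Points on the dashed line have the Wnt signal gene as their nearest gene. Of 50 distinct Pygo2 peaks 19, and of 9 distinct β-catenin peaks 1, are nearest to one of the 37 genes. Such shares were not computed around other genes.

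Peaks were therefore also assigned to their nearest gene at any distance. Of all Pygo2 peaks, 20 (0.280%) had one of the 37 genes as their nearest protein-coding gene, and of all β-catenin peaks 1 (0.0927%), while the 37 genes make up 0.169% of the protein-coding genes. A gene with more empty sequence around it can be nearest to more peaks. These shares were not matched on gene spacing, so they show neither an excess nor a lack. The 20 Pygo2 peaks belonged to 12 genes: 11 peaks to 6 receptor genes, 7 to 4 ligand genes and 2 to 2 Sfrp genes. Of the 20, 5 (25.0%) lay within 1 kb of the gene end, against 45.7% of all Pygo2 peaks and any protein-coding gene end. In the window of 50 kb, 17 of 26 distinct Pygo2 peaks (65.4%) had one of the 37 genes as nearest gene. Of the other 9, 8 lay within 1 kb of an end of their nearest gene. Neither share was computed for windows around other genes. With each peak given to its nearest protein-coding gene only, 10 of the 37 genes (27%) kept a Pygo2 peak within 50 kb, against 21.9% of all genes: Wnt6, Wnt10a, Wnt11, Fzd1, Fzd2, Fzd3, Fzd8, Fzd10, Sfrp2 and Frzb. No gene kept a β-catenin peak, against 3.67% of all genes, or a shared position, against 1.06%.

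Under other rules for the window of 50 kb the counts were as follows. Measured from start sites, 8 of the 25 genes that have one (32%) had a Pygo2 peak, against 41.2% of all genes. For a β-catenin peak or a shared position the count was 0, against 9.52% and 3.54%. Fzd2, Fzd3, Fzd8, Lrp5 and Wnt10a, which counted for Pygo2 from gene ends, dropped out because no start site was available. Only Wnt3a and Sfrp5 dropped out by distance, their start sites being 82.4 and 53.9 kb from the nearest Pygo2 peak. With the first-listed 50% of each list, 11 genes (29.7%) had a Pygo2 peak, against 31.4%, 1 gene (Wnt6) a β-catenin peak, against 6.29%, and 0 a shared position, against 2.58%. Leaving out peaks within 1 kb of any protein-coding gene end, 8 genes (21.6%) had a Pygo2 peak, against 23.7%, 2 genes (5.41%) a β-catenin peak, against 5.39%, and 0 a shared position, against 1.36%. With each peak given to the nearest gene of any type except pseudogenes, 8 genes (21.6%) had a Pygo2 peak, against 18.8%, and 0 a β-catenin peak, against 2.87%. Shared positions stayed at 0 of 37 when overlap by at least 50% was asked for, against 3.00% of all genes, and when centres within 500 bp counted, against 5.38%.

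Other genes of the pathway, from a list of 53 outside the 37, were counted in the same way. Of 34 genes for other extracellular, membrane and trafficking components, 22 (64.7%, interval 46.5 to 80.3%) had a Pygo2 peak within 50 kb and 9 (26.5%) within 1 kb, against 45.8% and 16.5% of all genes. The 9 were Wif1 (0.124 kb), Ptk7 (0.189 kb), Lgr6 (0.693 kb), Znrf3 (0.220 kb), Draxin (0.629 kb), Gpc3 (0.041 kb), Gpc6 (0.333 kb), Vangl2 (0.178 kb) and Celsr3 (0.012 kb), among them an inhibitor that binds Wnt ligands (Wif1), the receptor-clearing ligase of the R-spondin axis (Znrf3) and a planar cell polarity component (Vangl2). A β-catenin peak within 50 kb was present for 3 of these 34 genes (8.82%), against 10.9% of all genes. Of 19 genes for intracellular components, 14 (73.7%) had a Pygo2 peak within 50 kb and 5 within 1 kb (Dvl1, Dvl2, Tcf7l2, Bcl9l and Pygo2), against 45.8% and 16.5% of all genes. β-catenin peaks lay within 50 kb of 7 of the 19 (36.8%, interval 16.3 to 61.6%), against 10.9%. Overlapping peaks lay within 50 kb of 5 of the 19 (26.3%, interval 9.15 to 51.2%), against 4.00% of all genes. The 5 were Axin2 (2.62 kb), Lef1 (4.28 kb), Dvl2 (5.07 kb), Dvl1 (15.8 kb) and Pygo1 (32.9 kb). Within 1 kb, 0 of the 19 had a β-catenin peak or overlapping peaks, against 2.01% and 0.786% of all genes. Overlapping peaks lay within 50 kb of 0 of the 34 and 0 of the 37 Wnt signal genes, and the intervals of both (up to 10.3% and up to 9.49%) include 4.00%. Whether peaks near these 53 genes lay nearer to another gene was not looked up. Axin2, Lef1 and Znrf3 are themselves known targets of the pathway, and the lists were chosen with results of these data known. An interval that leaves out the share of all genes therefore cannot be read as a test. These counts describe the genes listed and were not tested against each other.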

How the data were processed

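The deposited data used here are a peak list for each protein (BA2). Per the file headers, the authors called peaks with HOMER findPeaks (factor style) on 1 library each against IgG BA1, at a false discovery rate of 0.001, requiring 2-fold enrichment over IgG and over the local 10 kb, a Poisson p of 1e-04 or less and at most 1 tag per position. The file names mention IgG with BA2; the headers were followed. The submitters' processing notes name Bowtie, Bowtie2 and mm10. Every peak has a deposited score of 1, which ranks nothing; the place of a peak in the list is given as a percentage of the list, and the headers do not state its order.

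Distances were taken from peak centres to gene ends in RefSeq GRCm38.p6 (the assembly of mm10), a table without strand or exons, so exons, introns and UTRs were not told apart. Start sites came from RefSeq promoter sequences, which held 17491 of the 21883 genes. Alternatives were windows of 1 and 100 kb, start sites only, nearest gene only, the first-listed 50% of peaks, leaving out peaks at gene ends, and peak edges. Shares were read against those of all protein-coding genes, without matching on gene spacing, and no test was run, because each protein has 1 library. Nearest distances and the number of peaks within 50 kb were checked against a direct search on simulated peaks. The nearest-gene step was checked there only for giving peaks to no more genes than there were peaks. The overlap and start-site steps were not checked in this way. Python 3.11.15, NumPy 2.4.6, pandas 2.3.3, SciPy 1.17.1 and Matplotlib 3.10.9 were used. The members and lists were chosen with earlier results of these data known. All 37 genes are accounted for: those with a peak within 50 kb (β-catenin or overlapping peaks, 100 kb) are named with distances, those with none within 100 kb by name, and other pathway genes with a peak within 1 kb or overlapping peaks within 50 kb. Of the 7 labelled libraries the other 5 enter only through the IgG control of the peak calling.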

Additional observations from a re-analysis of the deposited data

How the results depend on the processing

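At 50 kb, 15 of the 37 genes had a Pygo2 peak, 2 a β-catenin peak and 0 overlapping peaks. With a window of 1 kb these counts were 5, 0 and 0, and with 100 kb 26, 10 and 2. In ligand genes the Pygo2 count was 6 at 50 kb, 1 at 1 kb and 12 at 100 kb; Sfrp genes had 0 at 1 kb and Rspo genes 2 at 100 kb. When only the nearest protein-coding gene of a peak counted, the values were 0 for β-catenin and 3 for Pygo2 in ligand genes. With the nearest gene of any type except pseudogenes, an alternative added after the data were seen, they were 8 for Pygo2, of which 2 were ligand genes, and 0 for β-catenin. Start sites, available for 25 of the 37 genes, gave 8 for Pygo2 and 0 for β-catenin, with 2 of 6 receptor genes. The receptor genes Fzd2, Fzd3, Fzd8 and Lrp5 and the ligand gene Wnt10a fell out for lack of a start site, not by distance. Without peaks within 1 kb of any gene end, Pygo2 peaks remained in the window of 8 genes, 3 of them ligand and 3 receptor genes. The first-listed 50% of peaks gave 1 gene for β-catenin and 1 Sfrp gene for Pygo2. The other counts stayed within 1.5 times the value at 50 kb, including all those measured from the nearest peak edge. No paired analysis was possible because each protein has 1 library and the counts come from no test; for the same reason no replicate could be left out. Few tags per peak limit detection, so missing peaks are not evidence of missing binding.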

Other observations

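Of the Pygo2 peaks within 100 kb whose nearest protein-coding gene was a Wnt signal gene, several lay nearer to a gene for a non-coding RNA; these were looked up after the values were seen. Both peaks near Fzd10 were 6.998 and 1.876 kb from an end of Gm33931. The peak 52.95 kb from Wnt7b was 0.180 kb from an end of D130051D11Rik. The peak 17.2 kb from Fzd2 was 0.848 kb, and the peak 22.9 kb from Fzd2 6.55 kb, from an end of 2810433D01Rik. The peak 6.35 kb from Fzd3 was 0.752 kb from an end of Gm41177. The peak inside Wnt11 was 0.835 kb from an end of Gm33770, and the peak 30.5 kb from Wnt11 was 10.8 kb from an end of the transfer RNA gene n-TPtgg8. The peak inside Wnt6, downstream of its start site, was 1.546 kb from an end of Gm29539. The β-catenin peak 62.4 kb from Sfrp1 was 38.1 kb from an end of Gm30370. The peaks at the ends of Fzd1, Fzd2, Fzd3, Fzd8 and Wnt10a, and those of Frzb and Sfrp2, had no nearer gene of any type except pseudogenes.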
